A study of Mus musculus with 12 samples.

Results

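Classical monocytes of the neonatal mouse liver were chosen cell by cell from raw unique molecular identifier (UMI) counts, where 1 UMI stands for 1 captured RNA molecule. A cell was a member when it held at least 3 UMIs of Lyz2, at least 1 of Ccr2 or Ly6c2 and at least 1 of Csf1r, Ms4a4c or F13a1. It also had at most 1 UMI over C1qa, C1qb and C1qc, at most 1 over the granule genes Elane, Mpo, Prtn3, Ngp and Camp, and 0 over Flt3, Siglech, Cd209a, Cd79a, Cd3e and Stab2. Of 202557 barcodes that held between 500 and 50000 UMIs, no more than 20% of them mitochondrial (kept cells here), 5975 were members (2.95%). The 6 control mice gave 876 of them and the 6 anemic mice 5099.

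The study asked how anemia from repeated blood loss alters immune cells of the developing liver. C57BL/6 pups (genotype label C57BL6/J) of both groups were killed on postnatal day 11, the liver was dissociated with enzymes, and 1 droplet-based 3′ single-cell RNA library was made per mouse. Anemic pups had lost 20 µL of blood per g of body weight on postnatal days 2, 4, 6, 8 and 10, which brought the hematocrit to between 20 and 24%, and control pups had received a needle stick without bleeding. All 12 libraries carry the same batch label.

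Classical monocytes are made in hematopoietic tissue and leave it through the chemokine receptor CCR2, and Ly6C marks them in mice. They enter tissues under stress, secrete cytokines, chemokines and matrix proteins, and can become macrophages or dendritic-like cells. The liver of a newborn mouse still makes blood cells, so that newly formed and circulating monocytes are both found there.

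The genes of the rule describe the members and carry no test. Lyz2, which encodes lysozyme, stood at 6354 ± 535 CPM (a gene's UMIs over all member UMIs of that mouse, on a fixed scale; mean ± SD, n = 6) in control mice and at 5952 ± 1122 CPM in anemia. Ccr2 stood at 542 ± 41.1 and 544 ± 159 CPM, and Ly6c2 at 1060.1 ± 194 and 989 ± 257 CPM. Ccr2 was detected in 66.7% of members, Ly6c2 in 87.4% and both in 54.1%, so that a part of the members was chosen through Ly6c2 without a Ccr2 UMI. At the Lyz2 threshold, the 120 members with 3 Lyz2 UMIs and the 146 cells just outside it with 2, which met every other criterion, held a median of 39 and 38 UMIs of monocyte markers outside the rule, against 55 in all members.

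Monocyte genes outside the rule were present in every mouse. All 16 such genes listed passed the filter on low counts, and their summed level was 13592 to 16493 CPM in the control and 14590.4 to 16690.1 CPM in the anemic group. Plac8, one of them, stood at 2197 ± 940.4 CPM over the 12 mice in monocytes, against 157 ± 116 in neutrophils, 382 ± 416 in Kupffer cells and 337 ± 75.6 in B cells. Csf1r, a gene of the rule and the receptor for macrophage colony-stimulating factor, stood at 453 ± 107 CPM in monocytes and 1085 ± 138 CPM in Kupffer cells, the macrophages of the liver sinusoids. These comparison classes, and endothelial cells, were chosen by UMI counts of their own marker genes. Not every listed gene set the members apart. S100a6 stood at 2137 ± 300.5 CPM in monocytes and 2513 ± 549 in neutrophils, Itgam at 266 ± 32.3 and 663 ± 53.8, and Fcgr1 at 53.1 ± 24.3 CPM in monocytes and 156 ± 23.1 in Kupffer cells.

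The libraries held 46252146 to 74545930 UMIs, and the members of 1 mouse 320022 to 739130 UMIs in control and 532712 to 11910047 UMIs in anemic mice. There were 144, 253, 129, 116, 129 and 105 members in control 1 to 6 and 214, 2968, 1243, 209, 312 and 153 in anemia 1 to 6. Anemia 2 alone gave 49.7% of all members and anemia 3 another 20.8%. Anemia 2 also stood apart in its RNA, with a median correlation to the other mice of its group of 0.814, where the remaining 11 mice had 0.905 to 0.943. Of the members' barcodes, 3 occurred in more than 1 library. A doublet caller marked 822 members (13.8%), 5.93 ± 2.91% per control and 10.8 ± 4.72% per anemic mouse, and these were kept. The caller marks a number of kept cells set in advance by the barcodes of each library. Over all kept cells that share was 13.2 ± 1.24% per control and 14.5 ± 1.53% per anemic mouse. Among members the share was 16.6 and 16.4% in anemia 2 and 3, against 14.3 and 17.0% of their kept cells. The share among members was 5.14 to 9.80% in the other anemic mice and 2.33 to 9.52% in control mice, below that of kept cells in each of these mice.

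Monocytes made up a larger share of the liver cells of anemic mice. They were 0.907% ± 0.281 of kept cells in control and 4.65% ± 6.23 in anemic mice (n = 6 each), with medians of 0.864% and 1.54% (exact two-sided Mann-Whitney test, p = 0.0152). The control mice stood at 0.946, 1.42, 0.926, 0.760, 0.802 and 0.591% (control 1 to 6). The anemic mice stood at 1.33, 16.8, 5.92, 1.13, 1.76 and 0.993% (anemia 1 to 6). The groups overlapped: 3 of 6 anemic mice (anemia 2, 3 and 5) lay above every control mouse, and anemia 1, 4 and 6 lay below control 2. Without anemia 2 the difference was 1.32 percentage points in place of 3.75 (exact p = 0.0303), and without both anemia 2 and 3 it was 0.395 points (exact p = 0.0667).

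Erythroid cells, taken as cells with at least 20% globin UMIs, were 7.42 ± 4.96% of kept cells in control and 22.9 ± 7.71% in anemic mice, and so entered the denominator unequally. With these left out, monocytes were 0.977% ± 0.315 and 5.51% ± 6.79 of the remaining cells (exact two-sided Mann-Whitney test, p = 0.00866), with 4 of the 6 anemic mice higher than all controls. Without anemia 2 this difference of 4.53 points became 1.93, and without anemia 2 and 3 0.774 points (exact p = 0.0381).

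Among cells with a UMI of Ptprc, which encodes the leukocyte protein CD45, the shares were 2.02 ± 0.484% and 8.90 ± 8.74%. All 6 anemic mice (3.15 to 25.5%) lay above all 6 controls (1.499 to 2.92%), with an exact p of 0.00216, the smallest that 6 against 6 mice can give. The denominator also differed: cells with a Ptprc UMI were 35.5 to 44.7% of kept cells in control mice and 35.3, 63.0, 48.8, 33.7, 27.2 and 26.8% in anemia 1 to 6. Monocytes per 100 neutrophils were 20.0 to 49.3 in control mice (median 28.3) and 47.5, 633, 146, 28.8, 77.0 and 43.7 in anemia 1 to 6 (median 62.2), with anemia 1, 4 and 6 within the control range. Monocytes per 100 Kupffer cells were 9.08 to 22.96 in control mice (median 11.3) and 23.9, 220.2, 143, 24.2, 35.1 and 20.4 in anemia 1 to 6 (median 29.7), with anemia 6 below the highest control. Both ratios were highest in anemia 2 and 3.

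**Figure D1:**
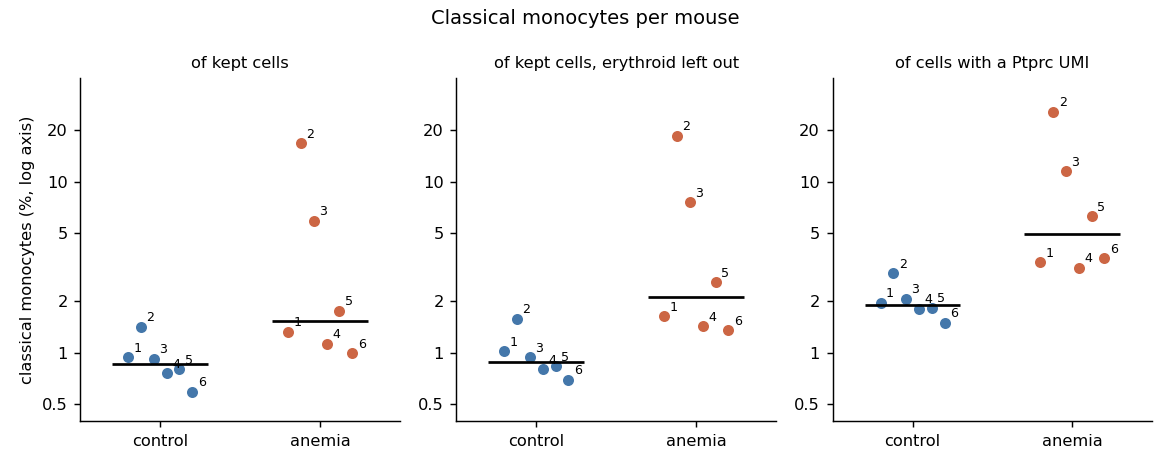
Classical monocytes per mouse as a percentage of kept cells, of kept cells without erythroid cells and of cells with a Ptprc UMI, on log axes; points are mice and lines are group medians. Anemia 2 and 3 stand highest in all 3 panels, and the 6 anemic mice lie above all 6 controls in the panel for Ptprc.

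Between the members of anemic and control mice, 8 of 10465 tested genes passed an adjusted p of 0.05 in edgeR's quasi-likelihood test, 7 higher and 1 lower in anemia. That is 0.0764% of the genes tested (0.0669% higher and 0.00956% lower), while 1196 genes had an unadjusted p under 0.05. The higher genes included Vcan, Wfdc17, Gda, Ctla2a, Fabp4 and Gm10076, and the lower one was Plxnc1. On plain CPM the anemic and control mice did not overlap for 7 of the 8, all but Gda. Over all tested genes the groups did not overlap for 0.688% (39 higher, 0.373%, and 33 lower, 0.315%). Without anemia 2 and 3 edgeR called 21 of 8191 genes, 13 higher and 8 lower, all 8 among them. With called doublets left out it called 24, 9 higher and 15 lower, so that the balance of directions turned. Most of the lower calls were then hepatocyte genes, such as Apoa1 and Ttr, so the turn is not read as one of monocyte genes. Without control 3, control 4 or anemia 4 it called 5, in each case Ctla2a, Fabp4, Plxnc1, Vcan and Wfdc17. Fold changes below are log2 values of anemia over control with their standard error. Gene positions are those of the GRCm38 annotation.

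Vcan encodes versican, a large proteoglycan of the extracellular matrix that monocytes secrete (chromosome 13, 89655312 to 89742509, minus strand). Its level was 88.3, 54.1, 51.5, 51.8, 63.3 and 50.0 CPM in control 1 to 6. In anemia 1 to 6 it was 166, 101, 202, 208, 244 and 240.3 CPM, so that the lowest anemic mouse, anemia 2, still lay above the highest control. The fold change was 1.73 ± 0.20, with an edgeR adjusted p of 0.000914. In cells thinned to 1500 UMIs each, Vcan was detected in 7.34% ± 3.49 of control and 18.0% ± 3.99 of anemic monocytes. The group mean in neutrophils, Kupffer cells, B cells and endothelial cells was at most 0.911%. In the members with less RNA of other cells the fold change was 1.65 and the edgeR adjusted p 0.0740.

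Wfdc17 encodes a small secreted protein with a whey acidic protein domain (chromosome 11, 83703991 to 83706268, plus strand). Its control levels were 367, 452, 418, 368, 359 and 416 CPM. Its anemic levels were 609.6, 818, 872, 634, 643 and 734 CPM, with anemia 2 and 3 highest and no overlap between groups (fold change 0.93 ± 0.13, edgeR adjusted p = 0.00528). It was detected in 43.6% ± 3.81 and 57.6% ± 3.74 of monocytes at 1500 UMIs. Kupffer cells held it at 1397 ± 232 and 1781 ± 304 CPM. In neutrophils it was detected in 1.28% ± 0.868 of control cells and in 0.556 to 49.9% of the cells of single anemic mice.

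Gda encodes guanine deaminase, an enzyme of purine breakdown (chromosome 19, 21391307 to 21473445, minus strand). Its mean level was 459.6 ± 51.7 CPM in the control and 699 ± 105 CPM in the anemic group (fold change 0.66 ± 0.11, edgeR adjusted p = 0.0319). Anemia 2 lay at 489 CPM, within the control range of 399 to 529.6, and the other 5 anemic mice at 706 to 772 CPM. The call was lost when any 1 mouse other than anemia 2 was left out, with adjusted p up to 0.182 and fold changes of 0.62 to 0.72 over all fits with 1 mouse left out. Neutrophils, at 667 ± 129.9 and 811 ± 50.0 CPM, also held the gene.

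Ctla2a encodes an inhibitor of cysteine proteases (chromosome 13, 60934155 to 60936625, minus strand). It was scarce, at 6.79, 13.5, 7.73, 4.94, 9.37 and 9.37 CPM in control 1 to 6. In anemia 1 to 6 it was 25.3, 31.6, 40.1, 20.8, 39.9 and 33.8 CPM, without overlap (fold change 1.92 ± 0.27, edgeR adjusted p = 0.00566). At 1500 UMIs it was detected in 0.680% ± 0.573 of control monocytes and 0.698% ± 0.115 of control B cells. The control share is therefore not read as expression by the monocytes. In anemia the shares were 3.16% ± 0.755 of monocytes and 1.27% ± 0.605 of B cells. Endothelial cells held 225 ± 25.8 and 361 ± 90.2 CPM. With members that held no C1q or granule UMI the fold change was 1.92 and the edgeR adjusted p 0.0652.

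Plxnc1 encodes plexin C1, a receptor for semaphorin 7A on leukocytes (chromosome 10, 94790866 to 94944835, minus strand). It stood at 152, 159.6, 152, 180.2, 187 and 184 CPM in control 1 to 6. In anemia 1 to 6 it was 98.6, 57.7, 74.3, 106, 78.8 and 111 CPM, all below every control (fold change -0.92 ± 0.14, edgeR adjusted p = 0.0134). It was detected in 19.9% ± 3.41 of control and 10.4% ± 1.80 of anemic monocytes at 1500 UMIs. B cells had it in 3.03% ± 0.405 and 3.52% ± 0.965 of cells, so that the share of monocytes was above that of B cells in both groups. Endothelial cells had it in 58.6% ± 5.91 and 50.4% ± 9.45 of cells, also lower on average in anemia. Its share of neutrophils was 20.1% ± 4.23 and 18.3% ± 3.63. By detected share, control monocytes were thus above neither of these classes. The part of endothelial RNA in the members was not tested. By level, neutrophils stood at 148 ± 26.6 and 131 ± 19.6 CPM, against means of 169 and 87.7 CPM in monocytes.

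Fabp4 encodes an intracellular fatty acid carrier of fat cells, capillary endothelium and macrophages (chromosome 3, 10204088 to 10208576, minus strand). In the members it stood at 24.9, 50.1, 36.1, 19.7, 28.1 and 37.5 CPM in control 1 to 6. In anemia 1 to 6 it was 122, 107, 81.9, 122, 159 and 109 CPM (fold change 1.85 ± 0.20, edgeR adjusted p = 0.000857). Its detected share was 5.33% ± 1.40 and 12.5% ± 4.14 of monocytes, 5.68% ± 0.223 and 12.4% ± 3.35 of neutrophils and 4.25% ± 0.574 and 10.6% ± 1.97 of B cells. Endothelial cells held 3967 ± 775 and 11618 ± 1031 CPM. Kupffer cells had it in 10.4% ± 1.34 and 22.9% ± 2.29 of cells. The share in monocytes was like that of neutrophils and near that of B cells, so it is not read as expression by the monocytes. The part of RNA of other cells in it was not tested.

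Gm10076 is annotated as a long noncoding RNA gene (chromosome 14, 105681828 to 105682211, plus strand), and its counts are uncertain where near-identical copies share reads. It stood at 61.1 ± 11.3 and 116 ± 22.1 CPM without overlap (fold change 0.96 ± 0.16, edgeR adjusted p = 0.0192). B cells stood at 92.4 ± 9.60 and 159 ± 34.9 CPM and all kept cells together at 83.6 ± 7.89 and 162 ± 30.4 CPM. The level was thus also higher on average outside the monocytes. The call was lost without control 3, 4, 5 or 6 and without anemia 1, 4 or 6, with adjusted p up to 0.0945 and fold changes of 0.88 to 1.03 over all fits with 1 mouse left out.

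**Figure D2:**
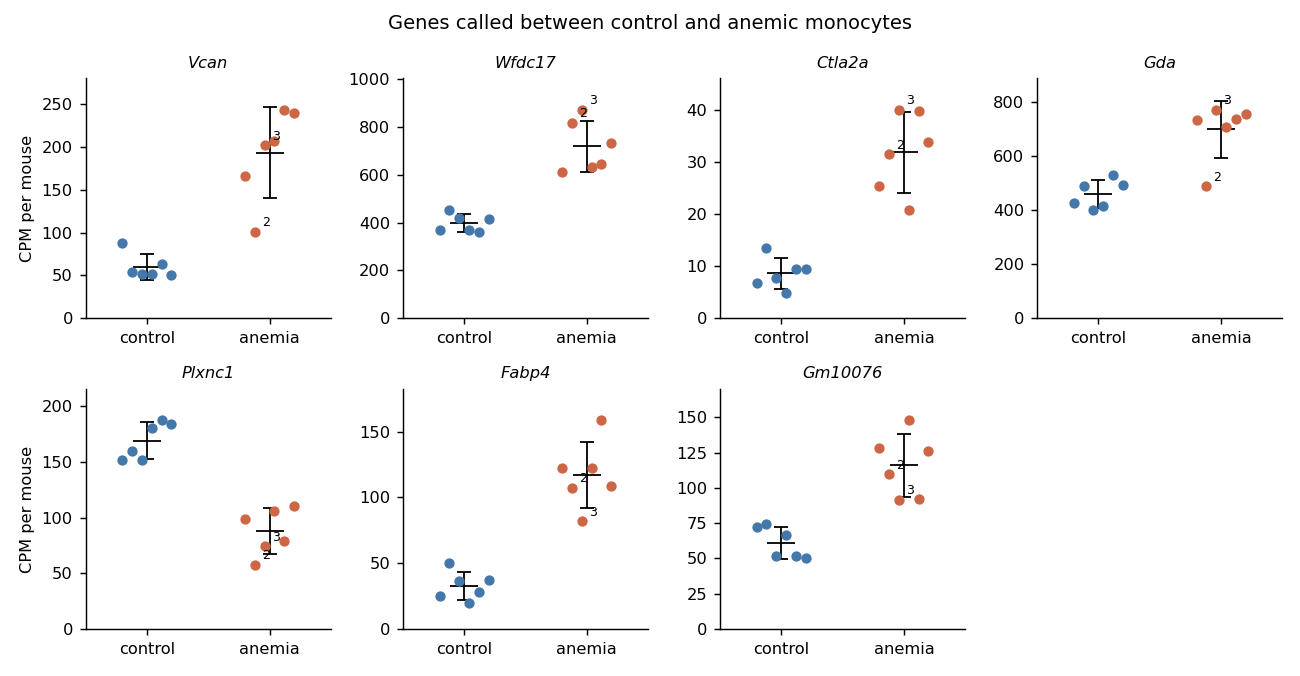
Level of 7 of the 8 called genes in the members of each mouse, in CPM on axes that start at 0; points are mice, bars are mean and SD over 6 mice. Anemic and control mice do not overlap except for Gda, where anemia 2 lies within the control range.

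**Figure D3:**
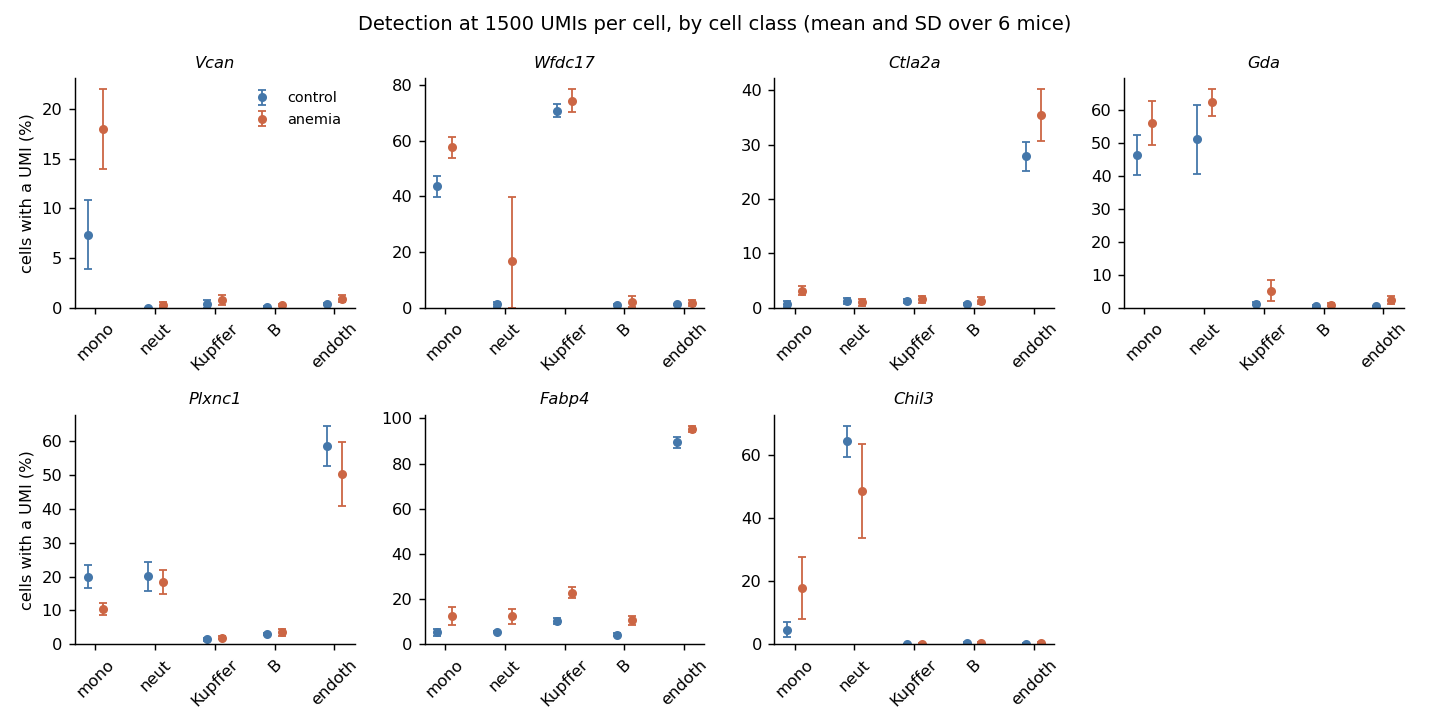
Percentage of cells with a UMI of 6 called genes and Chil3 in monocytes, neutrophils, Kupffer cells, B cells and endothelial cells, each cell thinned to 1500 UMIs; points and bars are mean and SD over 6 control and 6 anemic mice. Among these 5 classes Vcan is seen mainly in monocytes, while the Fabp4 share of monocytes is close to that of neutrophils.

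The sequence before the start of a gene holds sites for factors that set its level. The 250 bases before the start are printed for 3 called genes: Vcan, seen mainly in monocytes among the classes compared, Ctla2a, with the largest fold change of the 8, and Plxnc1, the only lower one. The Ctla2a value of 1.92 stands over a control level not read as expression by the monocytes and is close to that of Fabp4 (1.85). The windows are chr13:89742513-89742762 (Vcan), chr13:60936626-60936875 (Ctla2a) and chr10:94944846-94945095 (Plxnc1), from RefSeq on GRCm38.p6, all on the minus strand and written 5′ to 3′. Capitals mark a match on either strand to GAGGAA (a core bound by PU.1), ACGTG (the core of hypoxia response elements), TGANTCA (an AP-1 site) or TTGCNNAA (a C/EBP core).
Vcan: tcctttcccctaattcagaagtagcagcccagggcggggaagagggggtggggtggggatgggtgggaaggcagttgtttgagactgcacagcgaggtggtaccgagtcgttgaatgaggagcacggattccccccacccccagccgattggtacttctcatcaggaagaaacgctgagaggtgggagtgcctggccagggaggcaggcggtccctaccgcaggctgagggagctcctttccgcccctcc
Ctla2a: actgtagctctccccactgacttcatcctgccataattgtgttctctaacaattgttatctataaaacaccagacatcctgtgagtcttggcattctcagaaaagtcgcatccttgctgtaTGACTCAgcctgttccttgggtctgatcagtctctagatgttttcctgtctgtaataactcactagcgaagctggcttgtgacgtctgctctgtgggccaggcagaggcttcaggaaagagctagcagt
Plxnc1: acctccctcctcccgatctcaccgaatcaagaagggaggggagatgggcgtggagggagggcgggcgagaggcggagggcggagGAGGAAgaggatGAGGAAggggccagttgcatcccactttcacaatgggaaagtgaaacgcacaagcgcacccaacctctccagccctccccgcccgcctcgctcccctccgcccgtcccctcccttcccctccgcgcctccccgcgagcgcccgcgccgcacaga
The Plxnc1 window held 2 matches to GAGGAA, a motif present in 23.3% of 32851 windows of the same length. The Ctla2a window held 1 match to TGANTCA, present in 6.75% of windows. The Vcan window held none of the 4 motifs, of which ACGTG is present in 16.6% and TTGCNNAA in 9.56% of windows. A match describes letters only, and no binding was measured.

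Shares of monocytes in 5 states were compared with each cell thinned to 1500 UMIs, since anemic monocytes were deeper (medians of 2954 to 3686 UMIs per mouse) than control ones (2638 to 2939.5 UMIs). The 63 members with fewer UMIs were left out. The states are ranges of counts and not cell types, and p-values were adjusted over the 5. The study names Vcan and Chil3 as high in anemic monocytes of these same mice. The states of these genes were thus not chosen apart from the data, and their p-values give no separate evidence. Cells with Vcan made up 12.2, 6.48, 5.88, 3.48, 11.0 and 4.95% of monocytes in control 1 to 6. In anemia 1 to 6 they made up 17.8, 11.5, 18.0, 16.3, 22.6 and 21.7%, with only anemia 2 below the highest control (exact two-sided Mann-Whitney test, p = 0.00433, adjusted p = 0.0108).

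Chil3 encodes a chitinase-like protein of neutrophils and of newly released monocytes. Cells with Chil3 made up 8.63, 5.67, 5.04, 1.74, 3.94 and 2.97% of monocytes in control 1 to 6. In anemia 1 to 6 they made up 20.7, 10.9, 14.6, 12.5, 36.5 and 11.8%, all above every control (exact p = 0.00216, adjusted p = 0.0108). Neutrophils held the gene in 64.5% ± 4.84 and 48.7% ± 14.9 of cells and B cells in 0.432% ± 0.272 and 0.456% ± 0.349, where the median depth before thinning was 3446 UMIs in monocytes and 2599 in B cells. Without anemia 2 and 3 the shares with Chil3 and with Vcan differed by 15.7 and 12.3 points (each adjusted exact p = 0.0159). Anemia 2 had the lowest share of the anemic group in both states. Leaving it out, a choice made after the data were seen, raises that group, so these p-values give no separate evidence. In the sums per mouse Chil3 stood at 45.8 ± 40.2 and 273 ± 257 CPM, with a fold change of 2.60 ± 0.54. It missed the threshold over all genes (edgeR adjusted p = 0.138). It passed in DESeq2 (adjusted p = 0.0219) and in edgeR with no filter on low counts (adjusted p = 0.0128). Without anemia 2 and 3 the fold change was 2.85 (edgeR adjusted p = 0.0131). The same limit holds there, since anemia 2 also had the lowest Chil3 level of its group.

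Cycling cells, with at least 2 UMIs over 10 genes of S phase and mitosis, made up 16.9% ± 5.77 of control and 8.92% ± 4.74 of anemic monocytes (exact p = 0.0152, adjusted p = 0.0253). The control mice stood at 15.1, 8.10, 26.1, 18.3, 17.3 and 16.8%. The anemic mice stood at 13.6, 2.14, 5.43, 14.4, 8.06 and 9.87%, with anemia 2 and 3 lowest. The adjusted exact p was 0.0505 without control 1, 3, 4, 5 or 6 and without anemia 2, 3 or 5, 0.0833 without anemia 2 and 3, and 0.0812 without thinning. It was 0.108 with called doublets left out and 0.108 with cells thinned to 1000 UMIs. The difference of -8.02 points ranged from -9.79 to -6.20 points with 1 mouse left out.

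Class II positive cells held at least 3 UMIs over H2-Aa, H2-Ab1, H2-Eb1 and Cd74, which build and guide the receptor that shows peptides to CD4 T cells. Anemia 2 and 3 had 49.4 and 36.9% of such cells. Anemia 1, 4, 5 and 6 had 8.45, 8.17, 11.0 and 11.2%, each below the control mice at 11.5 to 21.5%. With all 12 mice the means were 14.4% ± 3.99 and 20.8% ± 17.8 (exact p = 0.394, adjusted p = 0.394). Without anemia 2 and 3 the direction turned, with a difference of -4.71 points (exact p = 0.00952, adjusted p = 0.0159). Both mice had the highest shares of their group and were left out after the data were seen. The p-values of this comparison therefore give no separate evidence of a lower share.

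Cells high in interferon response genes, with at least 10 UMIs over 50 genes, made up 44.8% ± 17.6 and 57.9% ± 20.1 of monocytes (exact p = 0.240, adjusted p = 0.300). The mice varied widely within each group, at 27.8 to 75.7% in control and 33.7 to 92.0% in anemic mice. The highest were control 2 and anemia 2. Without thinning the adjusted exact p was 0.0361.

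**Figure D4:**
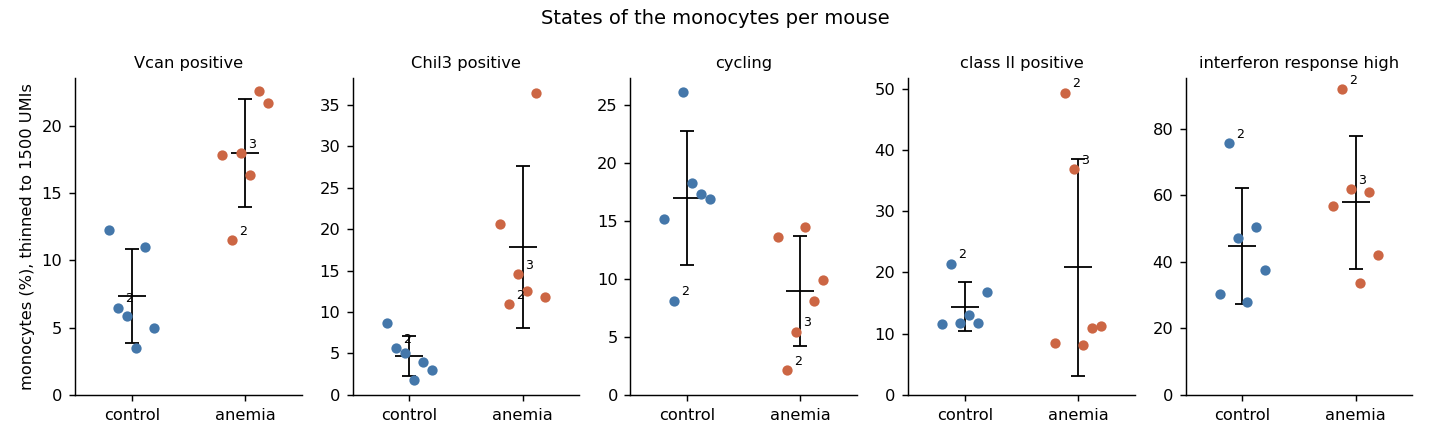
Percentage of monocytes of each mouse in 5 states, each cell thinned to 1500 UMIs; points are mice and bars mean and SD over 6 mice. Chil3 positive cells separate the groups, and class II positive cells are high in anemia 2 and 3 but low in the other 4 anemic mice.

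Gene lists were read as counts beside the background of all tested genes. Of these, 54.1% had a positive fold change (median 0.03), 7.15% were higher at an unadjusted p under 0.05 and 4.28% lower. The filter on a mean of 5 UMIs passed 10465 genes with all mice and 8191 without anemia 2 and 3. Genes high in those mice could pass through them, and the part of this in the list counts was not tested. Members of the lists that passed the adjusted threshold were Vcan, Wfdc17 and Fabp4, the last not read above as expression by the monocytes. Several genes stood high in anemia 2 and 3 and within or near the control range in the other 4 anemic mice.

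Among chemokine ligands, 14 of 16 tested genes were positive (median 0.73), with 7 higher and 1 lower at an unadjusted p under 0.05 and 0 called. The list holds Pf4 and Ppbp, which are also among the platelet markers read below as RNA of other cells. Its largest fold change, 3.11, was also the largest of the platelet markers. Cxcl2, which draws neutrophils, stood at 465.6 to 979 CPM in control mice, at 2090.4 and 2061 CPM in anemia 2 and 3 and at 583 to 865 CPM in the other anemic mice. Its fold change was 0.87 ± 0.34 with all mice (edgeR adjusted p = 0.357) and 0.02 without anemia 2 and 3.

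Ccl5, a chemokine that draws T cells and monocytes, split the anemic mice. It stood at 85.1 to 397 CPM in control mice, at 4871 and 1719 CPM in anemia 2 and 3, and at 43.6, 89.2, 43.5 and 41.3 CPM in anemia 1, 4, 5 and 6. Its fold change was 2.61 ± 1.06 with all mice (edgeR adjusted p = 0.371) and -1.95 without anemia 2 and 3 (edgeR adjusted p = 0.0206). Anemia 2 and 3 had the highest Ccl5 of the anemic group. Leaving them out lowers that group, so the latter p-value gives no separate evidence of a fall. Control neutrophils held 263 ± 109 CPM and anemic neutrophils 95.6 ± 96.2 CPM, and B cells held 133 ± 25.4 and 116 ± 91.8 CPM. The control monocytes, at 209 ± 127 CPM, were not above the neutrophils on average. Neither their level nor the lower level in 4 anemic mice is therefore read as expression by the members, and the source of this RNA was not tested. Ccl4 and Ccl6, ligands for receptors of myeloid cells, had fold changes of 0.77 ± 0.30 and 0.16 ± 0.16.

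Of the tested chemoattractant receptors 9 of 12 were positive (median 0.61), 6 were higher at an unadjusted p under 0.05 and 0 were called. C5ar1, the receptor for complement C5a, stood at 114 to 152 CPM in control mice and at 158, 435, 398, 172, 207 and 186 CPM in anemia 1 to 6, without overlap (fold change 1.16 ± 0.27, edgeR adjusted p = 0.145, DESeq2 adjusted p = 0.0269). Fpr2, a formyl peptide receptor, stood at 19.7 to 60.9 CPM in control mice, at 269.8 and 151 CPM in anemia 2 and 3 and at 25.7 to 50.7 CPM in the other anemic mice. Adhesion and migration genes were positive in 9 of 16 (median 0.03), with 3 higher at an unadjusted p under 0.05. Itga4, the α4 integrin chain, was among them (0.50 ± 0.16, edgeR adjusted p = 0.278).

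Among inflammatory cytokines and mediators, 19 of 22 were positive (median 0.60), 7 were higher at an unadjusted p under 0.05 and 0 were called in edgeR. Mif, a secreted inflammatory mediator, stood at 59.4 to 101 CPM in control mice and at 127, 465, 348, 123, 179 and 133 CPM in anemia 1 to 6 (fold change 1.55 ± 0.35, edgeR adjusted p = 0.142). Ptgs2, the inducible cyclooxygenase of prostaglandin synthesis, stood at 59.2 to 131 CPM and at 179, 354, 216, 169, 147 and 159.6 CPM (fold change 1.16 ± 0.25, edgeR adjusted p = 0.138). The groups of both genes did not overlap. Neither passed in this fit, and both passed in DESeq2 (adjusted p = 0.0124 for Mif and 0.0160 for Ptgs2) and in edgeR with no filter on low counts (adjusted p = 0.0365 and 0.0395).

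Il1b, which encodes interleukin 1β, stood at 319 to 429.5 CPM in control mice, at 1353 and 779 CPM in anemia 2 and 3 and at 323 to 472 CPM in the other anemic mice. Its fold change was 0.81 ± 0.32 (edgeR adjusted p = 0.357) and 0.03 without anemia 2 and 3. Alox5ap, the partner of 5-lipoxygenase in leukotriene synthesis, ranged over 2069 to 2536 CPM in control mice and 2093 to 3067 CPM in anemia. Of the secreted matrix and coagulation genes 13 of 18 were positive (median 0.20), and Vcan was the only one called. Fn1, which encodes fibronectin, stood at 982 to 1609.9 CPM in control mice, at 140.1 and 348 CPM in anemia 2 and 3 and at 1388 to 1736 CPM in the other anemic mice.

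Pattern recognition genes were positive in 16 of 20 (median 0.46), with 8 higher and 1 lower at an unadjusted p under 0.05. Clec4e, the receptor Mincle, stood at 141 to 237 CPM in control mice, at 754 and 471 CPM in anemia 2 and 3 and at 179 to 270.3 CPM in the other anemic mice. Cd14, a co-receptor for lipopolysaccharide, had a fold change of 0.21 ± 0.20, and Tlr2, a receptor for bacterial lipoproteins, of -0.38 ± 0.11 (edgeR adjusted p = 0.240). Fc receptors and adaptors were positive in 16 of 17 (median 0.40), with 9 higher at an unadjusted p under 0.05. Fcer1g, a signalling chain of Fc receptors, had 0.31 ± 0.15, and Syk, the kinase it recruits, 0.34 ± 0.13.

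Genes of hypoxia and glycolysis, which turn glucose into lactate when oxygen is short, were positive in 32 of 34 (median 0.51), with 20 higher and 0 lower at an unadjusted p under 0.05 and 0 called in edgeR. Bnip3, a mitophagy receptor induced by hypoxia, stood at 24.9 to 37.5 CPM in control mice and at 53.5, 175, 104, 40.3, 91.5 and 50.7 CPM in anemia 1 to 6 (fold change 1.68 ± 0.36, edgeR adjusted p = 0.138). Slc16a3, a lactate exporter, stood at 77.3 to 119 CPM and at 135, 259, 218, 125, 162 and 210.2 CPM (fold change 0.91 ± 0.20, edgeR adjusted p = 0.138). Both genes lay higher in all 6 anemic mice than in any control. Neither passed in this fit, and both passed in DESeq2 (adjusted p = 0.0120 for Bnip3 and 0.0248 for Slc16a3) and in edgeR with no filter on low counts (adjusted p = 0.0333 and 0.0491).

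Glycolytic enzymes stood high in anemia 2 and 3. Gapdh stood at 1595 to 2111 CPM in control mice, at 4497 and 3803 CPM in anemia 2 and 3 and at 1607 to 2074 CPM in the other anemic mice. Aldoa stood at 594 to 794, at 2419.7 and 2069.5 and at 672 to 910.4 CPM in the same order. Without anemia 2 and 3 the fold changes were 0.07 for Gapdh and 0.17 for Aldoa, but 0.99 for Bnip3 (edgeR adjusted p = 0.124) and 0.56 for Slc16a3 (edgeR adjusted p = 0.220).

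**Figure D5:**
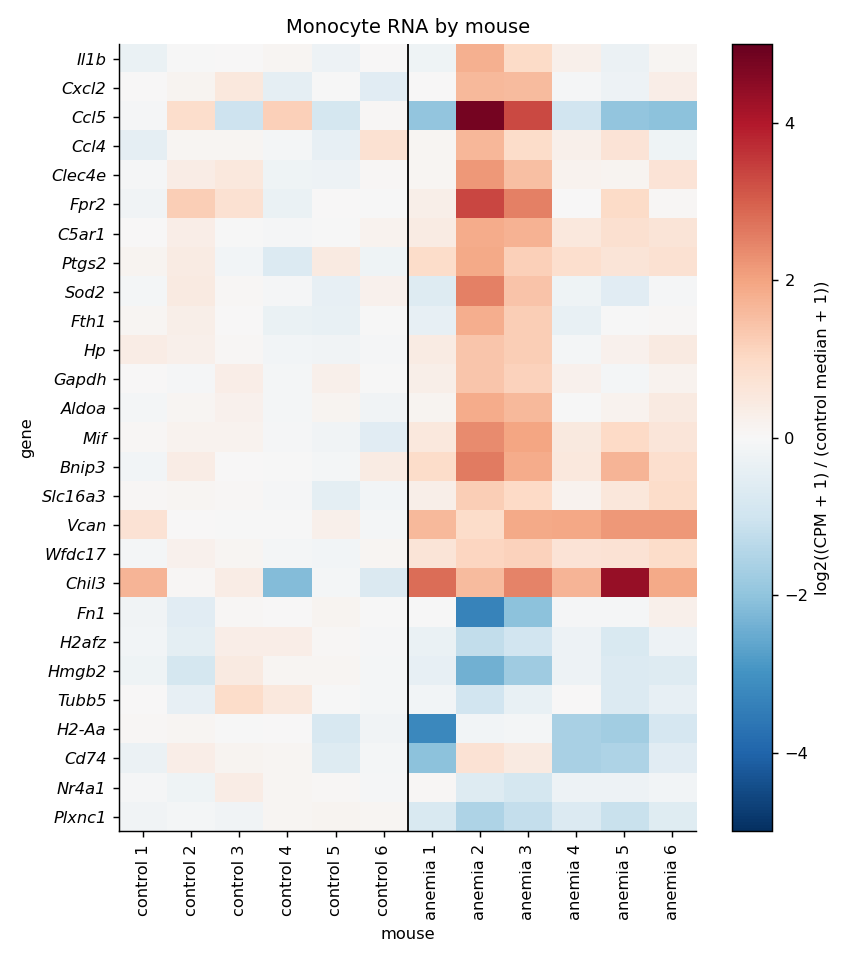
Level of 27 genes in the monocytes of each mouse relative to the control median, on a log2 color scale; rows are genes and columns mice, red higher and blue lower. Il1b, Fth1, Sod2 and Gapdh stand out in anemia 2 and 3, whereas Vcan, Wfdc17 and Plxnc1 differ in all 6 anemic mice.

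Cell cycle genes were positive in 0 of 28 (median -0.80), with 17 lower at an unadjusted p under 0.05 and 0 called. Their summed level was 4105 to 8748 CPM in control mice, 2081 and 2853 CPM in anemia 2 and 3, and 3709 to 5646 CPM in the other anemic mice. Fold changes were -0.78 ± 0.29 for Hmgb2, a chromatin protein of dividing cells (edgeR adjusted p = 0.324), -0.56 ± 0.17 for H2afz, a histone variant (edgeR adjusted p = 0.247), and -0.56 ± 0.20 for Tubb5, a β-tubulin (edgeR adjusted p = 0.314). Both tested markers of granulocyte and monocyte progenitors were negative (median -1.06, neither with an unadjusted p under 0.05). All 8 markers of that list, 3 of them genes of the rule, summed to 40.6 to 113 CPM in the control and 24.4 to 97.7 CPM in the anemic group, lowest in anemia 2. Their part in the cell cycle values was not tested.

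Class II antigen presentation genes were positive in 4 of 12 (median -0.17). H2-Aa, a class II chain, stood at 410.1 to 768 CPM in control mice, at 651 and 682 CPM in anemia 2 and 3, and at 77.4, 237, 217 and 399.8 CPM in anemia 1, 4, 5 and 6. Cd74, the invariant chain, stood at 2439 to 4706 CPM in control mice, at 6217 and 5104 CPM in anemia 2 and 3, and at 912, 1237, 1291 and 2574 CPM in the other 4. With all mice the fold changes were -0.70 ± 0.38 for H2-Aa and -0.23 ± 0.41 for Cd74 (edgeR adjusted p = 0.498 and 0.896). Without anemia 2 and 3 they were -1.54 and -1.29 (edgeR adjusted p = 0.0131 for both). Anemia 2 and 3 had the highest levels of the anemic group for both genes. Leaving them out lowers that group, so these p-values give no separate evidence of a fall. Dendritic cell markers, a list that holds the class II gene H2-Ab1, were positive in 2 of 7 (median -0.54), none with an unadjusted p under 0.05. They summed to 334 to 547 CPM in control mice and to 228, 529, 419, 263, 358 and 327 CPM in anemia 1 to 6, lowest in anemia 1 and highest in anemia 2 and 3, and their part in the class II values was not tested. Class I genes were positive in 13 of 13 (median 0.41) with 0 at an unadjusted p under 0.05.

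Interferon response genes were positive in 46 of 49 (median 0.56), with 5 higher at an unadjusted p under 0.05 and 0 called. Their sum was 5337 to 9913 CPM in control mice and 5696 to 14320.1 CPM in anemia. Samhd1, an antiviral nucleotide hydrolase, reached 985 CPM in control 2 and, in anemia 2, 1498 CPM, the highest of their groups (fold change 0.49 ± 0.22, edgeR adjusted p = 0.409). Ifitm3, a membrane protein that restricts viruses, had 0.25 ± 0.13.

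Neutrophil-like monocyte genes were positive in 18 of 19 (median 0.72), with 11 higher at an unadjusted p under 0.05 and Wfdc17 called. Lcn2, a granule protein that binds iron carriers, ranged over 0 to 54.1 CPM in control mice and 18.3 to 169 CPM in anemia (fold change 2.31 ± 0.64, edgeR adjusted p = 0.222). Hp, haptoglobin, stood at 483 to 702 CPM in control mice, at 1400.4 and 1255 CPM in anemia 2 and 3 and at 502 to 739.6 CPM in the others. S100a8, a calcium-binding protein of neutrophils, had 0.39 ± 0.35, and the list of S100 genes a median of 0.13. Neutrophil markers in the members were positive in 13 of 13 (median 0.58), with sums of 1445 to 4836 CPM in control mice and 1799 to 5782 CPM in anemia. Their part in the result was not tested.

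Nonclassical monocyte genes were positive in 12 of 17 (median 0.40). The only one called was Fabp4, whose share in monocytes is not read above as expression by them. Nr4a1, the factor on which nonclassical monocytes depend, had -0.32 ± 0.14 (edgeR adjusted p = 0.402). Monocyte transcription factors were positive in 13 of 25 (median 0.01), with 0.29 ± 0.13 for Zeb2, a zinc finger repressor. Growth factor and cytokine receptors were positive in 17 of 20 (median 0.27).

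Iron and heme genes were positive in 17 of 23 (median 0.20). Fth1, the ferritin heavy chain that stores iron, stood at 8455 to 13359 CPM in control mice, at 38859 and 25556 CPM in anemia 2 and 3 and at 8363 to 11432 CPM in the others. Respiratory burst and antioxidant genes were positive in 20 of 26 (median 0.17). Sod2, the mitochondrial superoxide dismutase, stood at 199 to 357 CPM in control mice, at 1491 and 713 CPM in anemia 2 and 3 and at 168 to 253 CPM in the others. Cybb, the catalytic subunit of the phagocyte oxidase, had 0.35 ± 0.16, Gpx1, a glutathione peroxidase, 0.19 ± 0.12 and Xdh, xanthine dehydrogenase, 0.41 ± 0.16. Fth1 and Sod2 thus stood apart in the same 2 mice.

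Lysosome and phagocytosis genes were positive in 20 of 30 (median 0.11), with 0.43 ± 0.14 for Lrp1, an endocytic receptor. Lipid genes were positive in 11 of 21 (median 0.01). Early response genes induced by tissue dissociation were positive in 12 of 19 (median 0.28), with 7 higher and 0 lower at an unadjusted p under 0.05. Their sums were 9364 to 10967 CPM in control mice and 8394 to 13089 CPM in anemia. Of 39 genes that the study names for monocytes, 30 were tested and 27 were positive (median 0.42). At an unadjusted p under 0.05, 15 were higher in edgeR, and only Vcan was called. The list was chosen on these mice and joins genes named as higher with genes named as lower in anemia, so it gives no evidence of a direction. The study tested a monocyte cluster of its own, with limma over all cell types together, so these counts are not set against its calls. Arg2, an arginase, had 0.73 ± 0.21 (edgeR adjusted p = 0.227).

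RNA of other cells was present in the members. Erythroid markers were positive in 9 of 9 (median 1.57), all with an unadjusted p under 0.05 and none called, with sums of 397 to 12406 CPM in control mice and 4563 to 22658 CPM in anemia. Hepatocyte markers were positive in 2 of 14 (median -0.49), with sums of 3856 to 12385 and 903 to 7103 CPM and Mup20 at 0 in every mouse. Platelet markers were positive in 4 of 4 (median 2.15), with sums of 2.58 to 21.9 and 28.2 to 103 CPM. Kupffer cell markers were positive in 5 of 10 and endothelial markers in 6 of 7 (medians 0.17 and 0.36), with sums of 224 to 412 and 253 to 495 CPM for Kupffer cell and 116 to 193 and 145 to 233 CPM for endothelial markers. Sums were 84.4 to 193 and 69.7 to 195 CPM for B cell markers and 7.03 to 74.4 and 2.72 to 89.3 CPM for T and NK cell markers. Stellate cell markers were positive in 3 of 4 (median 0.49), with sums of 21.9 to 752 and 28.6 to 750.0 CPM. The part of this RNA in the results was not tested beyond the alternatives named with each gene.

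The effect of anemia in monocytes was set against that in neutrophils and Kupffer cells of the same mice, as the interaction of group and class in edgeR with mouse as a block. Against neutrophils 0 of 7566 genes were called (0%) in edgeR, while 789 had an unadjusted p under 0.05; no other tool was run on the interactions. Within neutrophils 12 of 7931 genes were called (0.151%). The difference of effects was 2.44 ± 0.42 for Chil3 (edgeR adjusted p = 0.0597) and -0.73 ± 0.14 for Plxnc1 (edgeR adjusted p = 0.0638). Neither passed in this fit, but both were among the 8 genes called without TMM factors and the 10 called with a mean of at least 50 UMIs. Chil3 was also called without control 1, anemia 4 or anemia 5, and Plxnc1 without anemia 4. Calls numbered 3 without control 1, 2 without anemia 1, 25 without anemia 4, 4 without anemia 5 and 0 without any other 1 mouse.

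Against Kupffer cells 4 of 10316 genes were called (0.0388%): Vegfa, Cacna1d and Ly6i with a lower (0.0291%) and Ddx50 with a higher effect in monocytes (0.00969%). Vegfa, an angiogenic growth factor induced by hypoxia, stood at 79.9 ± 29.8 and 70.6 ± 25.4 CPM in control and anemic monocytes. In Kupffer cells it stood at 6.62 ± 1.90 and 37.9 ± 9.33 CPM. The difference of the fold changes was -2.71 ± 0.35 (edgeR adjusted p = 0.00610). Within Kupffer cells, where 241 of 13646 genes were called (1.77%), Vegfa rose (fold change 2.60, edgeR adjusted p = 8.82e-06).

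Cacna1d, a calcium channel subunit, had a difference of -1.60 ± 0.25 (edgeR adjusted p = 0.0245), with 54.0 ± 10.3 and 47.6 ± 16.9 CPM in monocytes and 3.25 ± 0.486 and 8.94 ± 2.70 CPM in Kupffer cells. Ly6i, of the same gene family as Ly6c2 and so uncertain where both share reads, was also called (edgeR adjusted p = 0.0289). It stood at 80.1 ± 46.8 and 228 ± 340.4 CPM in monocytes and at 0.248 ± 0.246 and 16.4 ± 29.0 CPM in Kupffer cells. With control Kupffer cells close to 0 and an SD above the mean in anemic ones, the size of its difference is not read. Ddx50, an RNA helicase, had 0.80 ± 0.13 (edgeR adjusted p = 0.0245), with 55.0 ± 5.47 and 77.5 ± 4.41 CPM in monocytes and 73.4 ± 3.05 and 60.7 ± 3.78 CPM in Kupffer cells. Leaving out 1 mouse moved the number of calls from 0 without control 2 to 63 without anemia 1, and it was 1 without control 1, control 5 or anemia 3, 2 without control 4 or 6, 12 without control 3, 18 without anemia 2, 45 without anemia 4 and 24 without anemia 6. Vegfa lost its call only without control 2. Cacna1d, Ly6i and Ddx50 lost theirs without control 1, 2, 4 or 5 and without anemia 3. Ly6i and Ddx50 also lost it without control 6, and Ddx50 without anemia 5. Vcan (1.31 ± 0.47) and Wfdc17 (0.53 ± 0.15) did not pass the test of the difference (edgeR adjusted p = 0.211 and 0.128).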

How the data were processed

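Liver cells of 6 control and 6 phlebotomized mice were measured by 10x 3′ sequencing, with reagent kit version v2 in the labels and v3.1 in the study's methods. The authors deposited raw UMI counts for 32285 genes per barcode, made with Cell Ranger 7.0.0 on mm10 per the labels; counts are not normalized. The deposited counts were used as they are. Members were chosen by the rule in the report, and summed per mouse. Members, gene lists and states were chosen with earlier results of these data known. Genes of the rule, mitochondrial and ribosomal protein genes were not tested.

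Genes that averaged 5 or more UMIs over the mice entered the test with edgeR 4.0.16 (quasi-likelihood, TMM, R 4.3.3), with Benjamini-Hochberg adjusted p at 0.05. This filter weighs mice by their member UMIs, most of all anemia 2. It passed 10465 genes with all mice, 9207 without anemia 2 and 8191 without anemia 2 and 3. CPM are UMIs scaled by the plain member total. Interactions with neutrophils and Kupffer cells were fitted with mouse as a block. Shares were tested by exact two-sided Mann-Whitney tests (scipy 1.17.1), with states adjusted over 5. Doublets were scored by simulation, with 50 neighbours in 30 components. Alternatives were DESeq2 1.42.0, limma 3.58.1, other filters, scalings, cell rules and leaving out mice. The tests were also run on simulated data. Leaving out anemia 2 and 3 together was chosen after seeing the data for shares and states.

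Named genes were called genes, up to 12 a direction, with at least 10 CPM and no overlap, called and most abundant genes of each list, genes the study names for monocytes and called interactions, up to 5 a direction. Gda, Bnip3, Slc16a3, Ptgs2, Plac8 and Fcgr1 fall outside that rule and were chosen after their values were seen. One called gene is not reported here.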

Additional observations from a re-analysis of the deposited data

Results flagged for a closer look

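Of 114 groups of 6 mice checked for 1 mouse far from the rest, 13 held one. The groups share mice and related measures, and some genes were chosen after their values were seen. The number is therefore not set against chance. Anemia 2 stood apart in 6: its share of kept cells (16.8%) and of non-erythroid cells (18.5%), Gda (489 CPM), Ccl5 (4871 CPM), Samhd1 (1498 CPM) and Ptgs2 (354 CPM). Anemia 5 stood apart for Chil3 (786 CPM). Of the controls, control 1 stood apart for Vcan (88.3 CPM) and Chil3 (122 CPM), control 2 for its share of non-erythroid cells (1.58%) and Samhd1 (985 CPM), control 3 for Lcn2 (54.1 CPM) and control 6 for Ccl4 (512 CPM).

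The effect of anemia differed between monocytes and Kupffer cells by the interaction test in 4 genes: Vegfa (log2 difference -2.71), Cacna1d (-1.60), Ddx50 (0.80) and Ly6i (-3.75, a size not read, since control Kupffer cells held close to 0 CPM).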

How the results depend on the processing

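The count of 8 called genes was 44 with DESeq2 (all 8 shared), 5 with library sizes in place of TMM factors, 22 with no filter on low counts, 21 without anemia 2 and 3, 24 with called doublets left out and 5 to 10 with 1 mouse left out. Against neutrophils, where 0 genes were called, it was 8 without TMM factors, 10 with a mean of at least 50 UMIs and 0 to 25 with 1 mouse left out. Against Kupffer cells, where 4 were called, it was 12, 43 and 0 to 63. The cause was not tested.

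The difference in the share of kept cells was 0.395 points without anemia 2 and 3 and 1.32 to 4.48 with 1 mouse left out. The difference in cycling cells lost its call with no thinning (-8.22 points), 1000 UMIs (-5.53), doublets left out (-7.19) and anemia 2 and 3 left out (-5.45), and was -9.79 to -6.20 with 1 mouse left out. Interferon high cells passed with no thinning (12.3 points). Class II positive cells turned to -4.71 points without anemia 2 and 3.

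Without anemia 2 and 3 the fold change turned to -1.95 for Ccl5, 0.11 for Fn1, -0.16 for S100a8, -0.41 for Sod2, -0.14 for Fth1 and -0.0179 for Fpr2. It turned to 0.071 for Cd74 with at least 5 Lyz2 UMIs and to -0.0756 for S100a8 in members with less RNA of other cells. Of the other values of single genes, 1230 kept direction and side of the threshold, 33 lost and 28 gained a call. The shares of Chil3 and Vcan positive cells and of members among non-erythroid cells kept direction and side of the threshold under every alternative run.

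The replicate numbers were checked for pairing. Correlations of same-numbered mice over 4938 genes ran from -0.098 to 0.436, highest for number 2. For 2 of 6 numbers the control and the anemic mouse were each other's best match. This does not settle whether the numbers pair the mice, and the main fit took the mice as unpaired. A fit with the replicate block gave 71 calls, all 8 among them. Control mice held 105 to 253 members and anemic mice 153 to 2968, and the part of these numbers in the count of calls was not tested.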
